A study of Arabidopsis thaliana and Solanum lycopersicum with 40 samples.

Results

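Root transcriptomes of Arabidopsis thaliana seedlings after 1 d of shade were compared with those of seedlings kept unshaded for the same time. The comparison covered the genes whose mean level over all 24 Arabidopsis libraries was at least 1 FPKM (sequenced fragments scaled by transcript length and library size), which kept 19553 of the 33557 genes in the deposited table. At the edge of this limit, AS2 averaged 1.00 FPKM and was kept, and AT1G15330 averaged 0.999 FPKM and was left out. All seedlings were of the Col-0 accession, and the labels name no mutant, transgene or chemical treatment. Per the labels, they grew on agar with half-strength MS medium in constant white light for 5 d, and were then shaded or left unshaded for 1 d before the roots were harvested. The labels give neither the colour nor the strength of the light used as shade. Each of both groups held 2 libraries, a and b. The libraries of shaded and unshaded roots at 7 h and at 3 d, also 2 per group, were used to ask how the effect at 1 d differed from that of the earlier and the later time. The labels do not say whether the libraries of a group came from separate cultures, so p-values measure the spread between these samples, which may be technical.

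Roots do not fix carbon on their own account and live on sugar that the shoot sends down the phloem. When light is limiting, plant cells short of sugar activate the SnRK1 kinase, which works through bZIP transcription factors to switch on genes for the breakdown of amino acids, starch and cell constituents and to hold back growth. Light is also read as a signal by phytochromes and cryptochromes, which act through the E3 ligase component COP1 and the bZIP factor HY5 on flavonoid synthesis, the circadian clock and chloroplast genes. Roots of Arabidopsis make glucosinolates, sulfur-rich defence compounds built from methionine (aliphatic) or tryptophan (indolic).

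The 4 libraries at 1 d were alike in depth and in the agreement of replicates, while their FPKM sums differed by group. The sums were 926945 and 913478 in the shaded libraries, against 946990 and 963168 in the unshaded libraries. Relative depth, read from the steps between low values, was 0.926 and 0.962 for shaded roots, next to 0.909 and 0.990 for unshaded roots, within a range of 0.843 to 1.47 over all 24. Across genes, which are no replicates of each other, libraries a and b correlated with a Pearson's r of 0.983 in shaded and 0.980 in unshaded roots. The most abundant gene was the metallothionein gene MT1A, with 5.20 and 5.16% of all FPKM in the shaded libraries, against 6.93 and 7.75% in the unshaded libraries. The summed level of 20 root cell type markers was 964 and 974 FPKM in the shaded libraries, against 679 and 643 FPKM in the unshaded libraries (exact permutation test, two-sided, p = 0.333, the smallest that 2 against 2 libraries can give). Much of this difference was 1 gene, the phosphate exporter PHO1, at 338 and 355 FPKM in the shaded libraries, against 135 and 141 FPKM in the unshaded libraries, and 13 of the 20 markers did not pass the test for shade given below. Of 12 shoot markers, 6 were listed at 0 in all 4 libraries and the highest reached 0.28 FPKM. Their summed level was 0.482 and 0.292 FPKM in the shaded libraries and 0.388 and 0.453 FPKM in the unshaded libraries. In bulk roots such as these, fewer cells of a type and less RNA per cell cannot be told apart.

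After 1 d, 9950 genes, or 50.9% of those tested, passed an adjusted p of 0.05. Of these, 5532 were higher in shaded roots (28.3% of tested genes) and 4418 were lower (22.6%). Most differences were small: the median absolute log2 fold change of the called genes was 0.40, and at least 2-fold changes were called for 772 genes higher (3.95%) and 394 genes lower (2.02%). At least 4-fold changes were called for 183 genes higher and 92 lower. The libraries of shaded and unshaded roots did not overlap for 14910 genes (76.3%). Of the called genes, 6 had groups that overlapped, so a lack of overlap in a called gene adds little to its call. The median log2 fold change of all tested genes was 0.027, which is the level against which the medians of gene lists are read. Counts of called members in the lists are read against the 50.9% of all tested genes called, 28.3% higher and 22.6% lower. Higher genes made up 55.6% of the called genes, a share that moved to 63.6% when libraries were scaled to equal FPKM sums and to 49.97% with median-of-ratios scaling. The balance of higher and lower calls therefore depended on scaling.

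On the log2(FPKM + 1) scale, the largest rise was that of AT2G33830, a dormancy and auxin associated gene also known as DRM2. Its level was 1152 and 1239.7 FPKM in the shaded libraries, against 21.5 and 25.9 FPKM in the unshaded libraries. Both shaded libraries stood far above both unshaded ones. The log2 fold change was 5.60 ± 0.28, where ± gives the standard error (adjusted p = 2.51e-09, limma). Other marks of dormancy and darkness were among the 12 largest rises. AT3G15450, an aluminium-induced protein of sugar-starved cells, had 664 and 725 FPKM in the shaded libraries, against 40.2 and 47.3 FPKM in the unshaded libraries (log2 fold change 3.96). SEN1, a senescence-associated gene induced by darkness, had 23.9 and 29.6 FPKM in the shaded libraries, against 0.172 and 0.158 FPKM in the unshaded libraries, a log2 fold change of 4.57 ± 0.45. The unshaded libraries of SEN1 lay near 0, so this scale understates its fold change, and the order of the rises holds for this scale only. ATL8, a RING-type ubiquitin ligase gene, was at 38.0 and 38.7 FPKM in the shaded libraries, against 0.861 and 1.03 FPKM in the unshaded libraries (log2 fold change 4.34).

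CBP60G, a calmodulin-binding regulator that switches on salicylic acid synthesis, had 55.6 and 88.4 FPKM in the shaded libraries, against 1.37 and 1.41 FPKM in the unshaded libraries, with a log2 fold change of 4.90 ± 0.44 (adjusted p = 4.82e-07). PLA2A, a lipid acyl hydrolase induced by infection, had 35.9 and 73.9 FPKM in the shaded libraries, against 0.875 and 0.831 FPKM in the unshaded libraries (log2 fold change 4.83). CCOAMT, a caffeoyl-CoA O-methyltransferase, had 37.1 and 63.1 FPKM in the shaded libraries, against 0.379 and 0.696 FPKM in the unshaded libraries (log2 fold change 5.01). In each of these genes, chosen as large rises, the shaded libraries lay far above the unshaded ones, and shaded library b lay above shaded library a. GSTF6, a stress-induced glutathione transferase, reached 462 and 567 FPKM in the shaded libraries, against 27.0 and 39.0 FPKM in the unshaded libraries (log2 fold change 3.94). The berberine bridge enzyme-like genes AT1G26390 and AT1G26380 rose by 4.06 and 3.95 on the log2 scale, and the P450 gene CYP82C2 by 3.95. AT1G26380 and CYP82C2 encode enzymes of indole-derived defence compounds. The remaining gene of the 12, AT1G22890, whose product is uncharacterized, rose by 4.63.

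Shaded library b was above shaded library a in 12 of the 12 largest rises, by a median of 0.41 on the log2 scale, and in 527 of the 772 genes that were at least 2-fold higher. Over all tested genes it was above in 7644 of 19553. Without shaded library b, the log2 fold change was 4.57 for CBP60G, 4.31 for PLA2A and 4.64 for CCOAMT, all still called. The part of this difference between the shaded libraries in the count of rises was not tested.

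**Figure D1:**
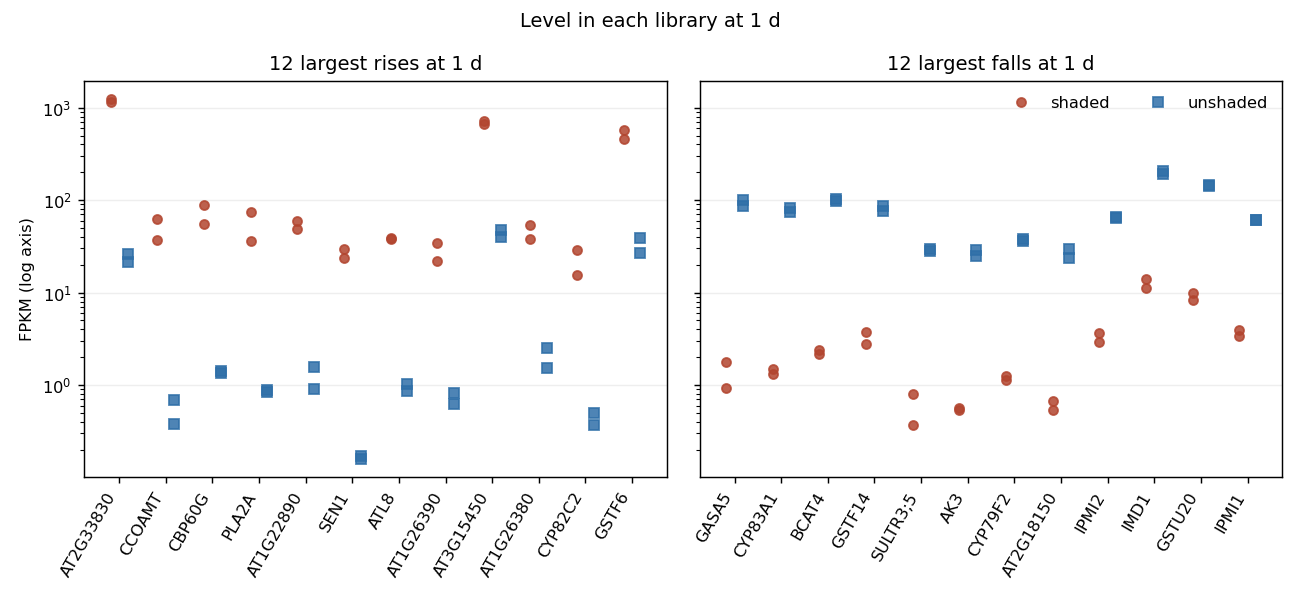
FPKM of the 12 largest rises (left) and 12 largest falls (right) at 1 d on a log axis, with 1 point per library, shaded libraries as circles and unshaded libraries as squares. In every gene shown the shaded and unshaded libraries are apart, as the choice of large called changes largely ensures. AT2G33830 is the most abundant of them in shaded roots at 1152 and 1240 FPKM.

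Among the largest falls, 7 of 12 were genes of methionine-derived glucosinolates. CYP83A1, the P450 that oxidizes aliphatic aldoximes, had 1.31 and 1.51 FPKM in the shaded libraries, against 74.0 and 81.7 FPKM in the unshaded libraries. This is a log2 fold change of -5.03 ± 0.15 (adjusted p = 3.53e-11), with the replicates of each group close together. BCAT4, the aminotransferase that opens methionine chain elongation, had 2.16 and 2.403 FPKM in the shaded libraries, against 98.3 and 103 FPKM in the unshaded libraries (log2 fold change -4.95). The largest fall on this scale was outside that pathway. GASA5, a small gibberellin-regulated peptide gene, had 1.77 and 0.940 FPKM in the shaded libraries, against 101 and 85.9 FPKM in the unshaded libraries, a log2 fold change of -5.34 ± 0.43 (adjusted p = 1.59e-07). SULTR3;5, a member of the sulfate transporter family, fell to 0.808 and 0.371 FPKM in the shaded libraries, against 28.5 and 29.6 FPKM in the unshaded libraries (log2 fold change -4.25). AK3, an aspartate kinase of the pathway that leads to methionine, fell to 0.563 and 0.542 FPKM in the shaded libraries, against 25.1 and 28.7 FPKM in the unshaded libraries. The remaining falls outside the pathway were those of the glutathione transferase gene GSTF14 (log2 fold change -4.27) and the peroxidase gene AT2G18150 (-4.10). In all 12 genes the unshaded libraries were the high ones and no shaded library reached them. This follows largely from their choice as called falls, and the groups were apart in 76.3% of all tested genes.

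Genes that are switched on in sugar-starved or darkened tissue were higher throughout. Of 14 listed dark-inducible and dormancy genes, 13 were tested and all 13 rose, 11 of them at least 2-fold, with a median log2 fold change of 1.64. DYL1, a dormancy-associated gene also called DRM1, had 515 and 462 FPKM in the shaded libraries, against 53.5 and 62.5 FPKM in the unshaded libraries (log2 fold change 3.05). AT1G80440, an F-box gene known as KMD1, had 21.1 and 20.4 FPKM in the shaded libraries, against 1.72 and 1.75 FPKM in the unshaded libraries (log2 fold change 2.99). The shaded and unshaded libraries did not overlap in any of the 13, nor in 76.3% of all tested genes. The smallest rise in the list was 0.46. In this and every other list described below in which limma called no (0) member in 1 direction at 1 d, the number in that direction at an unadjusted p under 0.05 was also 0.

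The breakdown of leucine, isoleucine and valine feeds electrons into the mitochondrial chain when sugar is short. It had 12 of 17 tested genes higher and none (0) lower (70.6% called), at a median of 0.49. BCAT-2, the aminotransferase of its first step, had 16.8 and 17.4 FPKM in the shaded libraries, against 0.148 and 0.247 FPKM in the unshaded libraries (log2 fold change 3.92 ± 0.30, adjusted p = 9.20e-08). IVD, the isovaleryl-CoA dehydrogenase, had 43.6 and 44.6 FPKM in the shaded libraries, against 12.8 and 13.7 FPKM in the unshaded libraries (log2 fold change 1.66). The rise also took in DIN4, a subunit of the branched-chain keto acid dehydrogenase (1.32), and MCCA, a subunit of methylcrotonyl-CoA carboxylase (1.55). The 5 members that missed the threshold lay between -0.037 and 0.095.

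Autophagy genes, whose products deliver cell contents to the vacuole, were higher in 21 of 27 members and lower in none (0) (77.8% called). The median was 0.42, and 1 member was past 2-fold. That member was ATG8E, a ubiquitin-like protein of the autophagosome membrane, with 259 and 286 FPKM in the shaded libraries, against 113 and 129.7 FPKM in the unshaded libraries (log2 fold change 1.16, adjusted p = 1.09e-07). ATG8F followed at 0.85. The protease gene AT2G44140 (ATG4A) and the kinase gene AT2G37840 (ATG1C) rose by 0.69 and 0.70.

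Regulators around SnRK1 and trehalose phosphate, a signal of sucrose supply, split by member. Of 24 tested, 12 rose and 4 fell (66.7% called, against 50.9% of all tested genes), at a median of 0.12. The bZIP factor bZIP1, a known SnRK1 output, had 38.2 and 42.1 FPKM in the shaded libraries, against 4.99 and 5.81 FPKM in the unshaded libraries (log2 fold change 2.69). TPS8, a trehalose-phosphate synthase-like protein of the class II type, had 46.6 and 46.6 FPKM in the shaded libraries, against 7.33 and 7.94 FPKM in the unshaded libraries (log2 fold change 2.46, adjusted p = 5.09e-09). The class II members TPS11 and TPS9 rose by 2.23 and 1.28. By contrast TPS1, the catalytically active synthase, had a lower level at -0.24, and so had TPS5, a class II member, at -0.23. The phosphatase genes TPPE and TPPA (ATTPPA in the annotation) had log2 fold changes of -1.19 and -0.31. The kinase subunit genes KIN10 and KIN11 themselves differed little, at 0.16 and 0.15, both called.

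Sugar transport and cleavage genes were higher in 14 of 26 members (9 without shaded library b) and lower in 3, at a median of 0.22. The share called was 65.4%, against 50.9% of all tested genes. SUC2, the phloem loading sucrose transporter, had 44.1 and 47.4 FPKM in the shaded libraries, against 20.8 and 20.8 FPKM in the unshaded libraries (log2 fold change 1.098, adjusted p = 6.98e-08). Sugar exporters of the SWEET family went both ways: SWEET2 and SWEET16 of the vacuole rose by 1.68 and 0.79, and SWEET17, also of the vacuole, fell to 25.3 and 25.4 FPKM in the shaded libraries, against 35.1 and 35.0 FPKM in the unshaded libraries. The hexose importer STP1 rose by 1.11. SWEET12, which exports sucrose towards the phloem in leaves, reached 3.26 and 4.78 FPKM in the shaded libraries (log2 fold change 2.28), while the unshaded libraries were listed at 0.0369 and 0 FPKM. The table gives the cell wall invertase gene ATBFRUCT1 197 and 208 FPKM in the shaded libraries, against 162 and 0 FPKM in the unshaded ones, so its large fold change rests on 1 listed 0 and missed the threshold. It was 1 of 16 genes listed at 0 in a single library at 1 d with at least 20 FPKM in the other 3, of which none (0) was called by limma and none (0) had an unadjusted p under 0.05.

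Nitrogen remobilization genes had 8 of 16 members higher and 6 lower (3 without unshaded library a), at a median of 0.15, which was 0.41 among members with a mean of at least 5 FPKM. The share called was 87.5%. The rises included catabolic steps. ERD5, a proline dehydrogenase, had 269 and 306 FPKM in the shaded libraries, against 152 and 153 FPKM in the unshaded libraries (log2 fold change 0.91). GDH2, a subunit of glutamate dehydrogenase, had 496 and 552 FPKM in the shaded libraries, against 334 and 331 FPKM in the unshaded libraries (0.65), and AT4G33150, the lysine-ketoglutarate reductase gene, rose by 0.94. The falls included enzymes of assimilation. GSR2, the cytosolic glutamine synthetase GLN1;2, had 1519 and 1831 FPKM in the shaded libraries, against 3716 and 4426 FPKM in the unshaded libraries (log2 fold change -1.28). GLU1, a ferredoxin-dependent glutamate synthase, and ASN2, an asparagine synthetase, had log2 fold changes of -0.84 and -0.28. ALDH12A1, the next enzyme of proline breakdown after ERD5, was lower at -0.61. The low grey point of this list, GLT1, was listed at 0 in 1 shaded library and was not called.

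**Figure D2:**
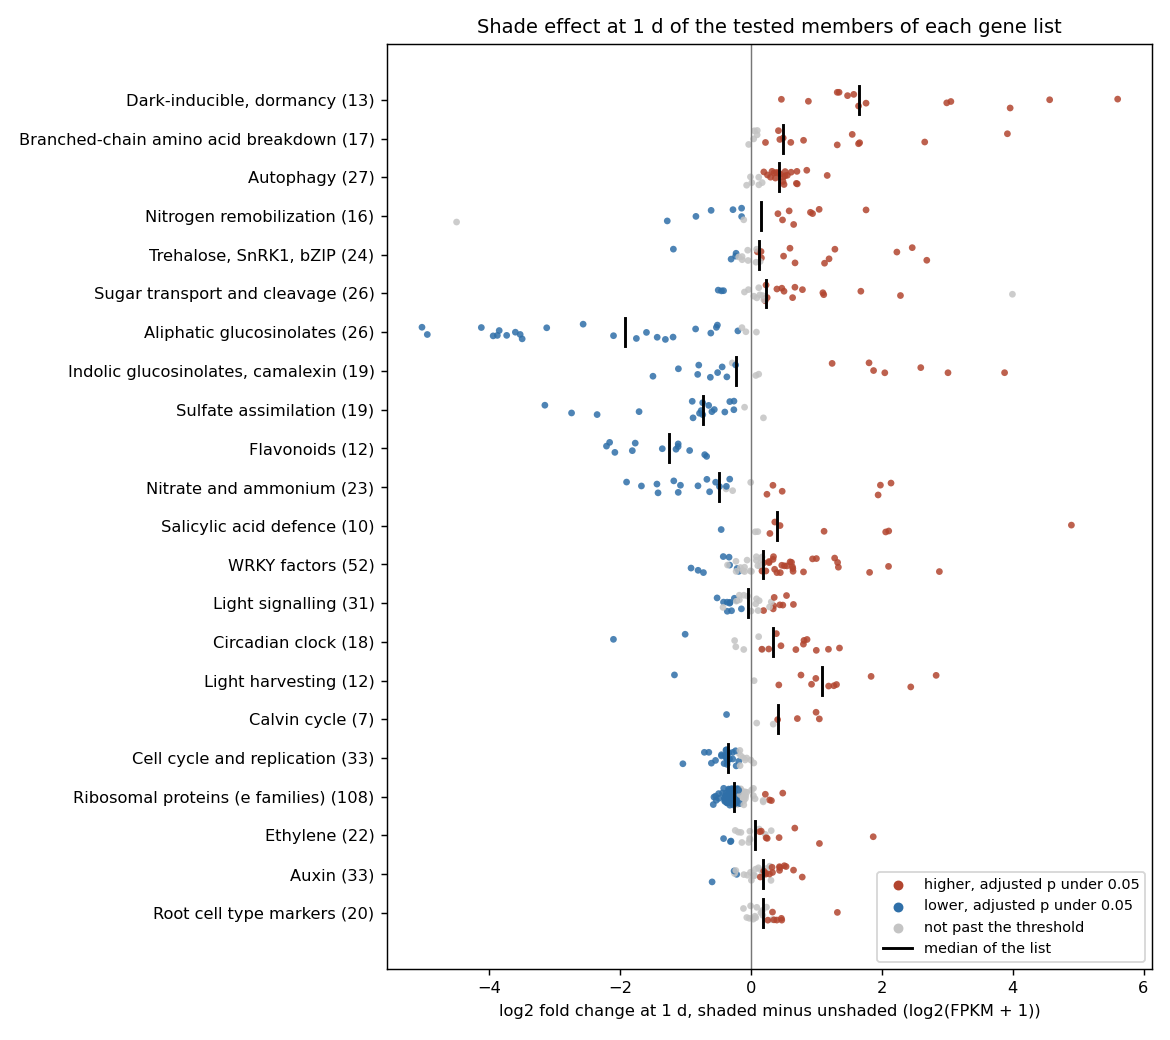
Log2 fold change at 1 d, shaded minus unshaded, of every tested member of 22 gene lists, with 1 point per gene and a bar at the median of each list. Points are coloured by whether the gene was called higher, lower or neither, and the lists run between a median of 1.64 for dark-inducible genes and -1.93 for aliphatic glucosinolates.

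Genes of aliphatic glucosinolate synthesis fell at nearly every step. Of 32 listed genes, 26 were tested, 23 fell and none (0) rose (88.5% called). At least 2-fold falls numbered 18, and the median log2 fold change was -1.93. The chain-elongation enzymes that lengthen methionine were low. MAM1, the methylthioalkylmalate synthase, had 1.06 and 1.17 FPKM in the shaded libraries, against 23.2 and 23.8 FPKM in the unshaded libraries (log2 fold change -3.53). IPMI2 and IPMI1, small subunits of isopropylmalate isomerase, had log2 fold changes of -3.94 and -3.74, and IMD1, the dehydrogenase after them, had 14.04 and 11.3 FPKM in the shaded libraries, against 193 and 206 FPKM in the unshaded libraries (-3.88). BAT5, the plastid transporter of the keto acids, was at 5.74 and 5.85 FPKM in the shaded libraries, against 37.6 and 41.1 FPKM in the unshaded libraries (-2.57). Shaded libraries were the low ones in every one of these genes, and the groups were apart in 76.3% of all tested genes.

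The core of the pathway fell too. CYP79F2, which makes aldoximes of long-chained methionine derivatives, had 1.25 and 1.13 FPKM in the shaded libraries, against 36.1 and 38.3 FPKM in the unshaded libraries (log2 fold change -4.12). Its neighbour CYP79F1, close in sequence, lay below 1 FPKM in all 4 libraries, and how shared reads were assigned is not given in the sources used here. GSTU20, a glutathione transferase of the pathway, had 9.90 and 8.36 FPKM in the shaded libraries, against 146 and 144 FPKM in the unshaded libraries (-3.85), and AT2G31790, the glucosyltransferase UGT74C1, had 2.82 and 2.69 FPKM in the shaded libraries, against 43.9 and 45.4 FPKM in the unshaded libraries (-3.60). The enzymes that the aliphatic branch shares with the indolic one changed less: SUR1, the C-S lyase, had a log2 fold change of -0.85 and GGP1, a gamma-glutamyl peptidase, -0.52. MYB28, the transcription factor that drives the aliphatic genes, had 6.19 and 6.46 FPKM in the shaded libraries, against 29.2 and 31.8 FPKM in the unshaded libraries (-2.103). The uncalled members were the glucosinolate importers GTR1 (-0.14) and GTR2 (-0.079) and the side-chain oxidase FMO GS-OX4 (0.082). In GTR1, GTR2 and FMO GS-OX4 the shaded and unshaded libraries lay close to each other.

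**Figure D3:**
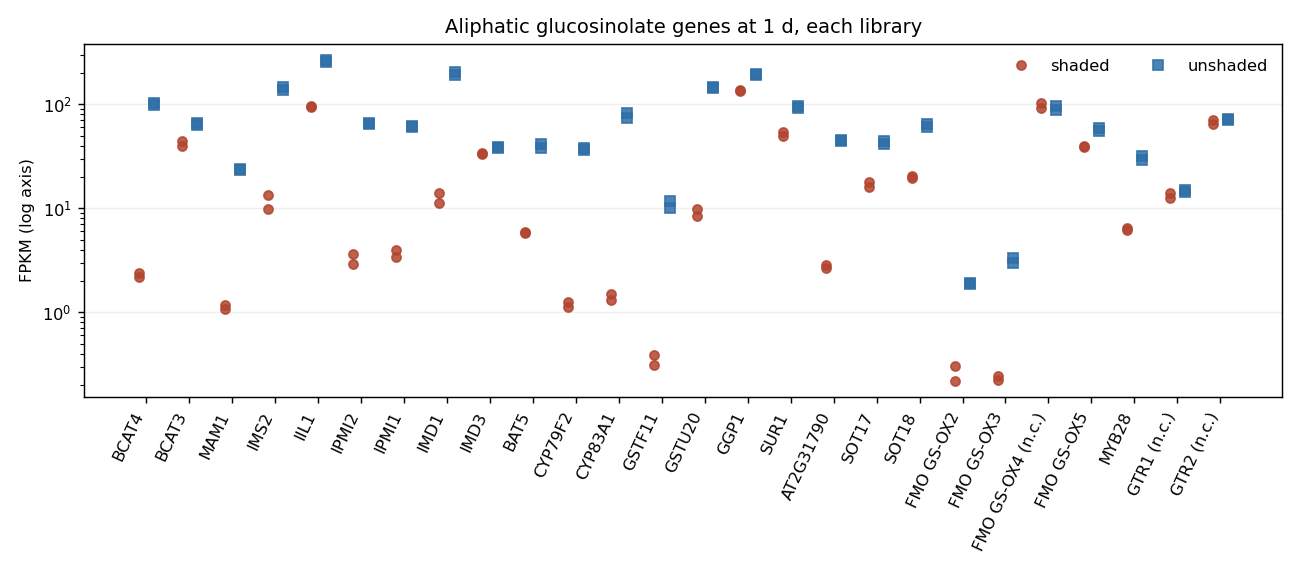
FPKM on a log axis of the 26 tested aliphatic glucosinolate genes at 1 d, 1 point per library, shaded libraries as circles and unshaded libraries as squares, in pathway order with MYB28 and the transport genes last and n.c. marking the 3 genes not called. The gap between the groups is widest at BCAT4 and CYP83A1 and small at GTR1 and GTR2.

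Sulfate uptake and assimilation, which supply the sulfur of glucosinolates, had 17 of 19 tested genes lower and none (0) higher. The share called was 89.5% and the median was -0.74. LSU2, a small protein induced by sulfur shortage, had 8.57 and 6.67 FPKM in the shaded libraries, against 55.2 and 57.6 FPKM in the unshaded libraries (log2 fold change -2.74, adjusted p = 1.28e-08). SULTR2;1, a low-affinity transporter of the root vasculature, had 1.92 and 2.34 FPKM in the shaded libraries, against 29.3 and 24.5 FPKM in the unshaded libraries (-3.15). SDI1 (ATSDI1 in the annotation), a repressor of aliphatic glucosinolate synthesis that is itself induced by sulfur shortage, had 1.18 and 0.854 FPKM in the shaded libraries, against 9.25 and 9.32 FPKM in the unshaded libraries (-2.35). SIR, the sulfite reductase, had a log2 fold change of -0.76 and the APS reductase APR1 -1.71. All of these genes had both shaded libraries below both unshaded ones, and the groups did not overlap in 76.3% of all tested genes. The exceptions among the 19 were LSU1, with 34.6 and 24.1 FPKM in the shaded libraries, against 25.6 and 24.8 FPKM in the unshaded libraries, where the groups overlapped, and the vacuolar transporter SULTR4;1 at -0.10.

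Flavonoid synthesis, a classical output of HY5, was lower in 12 of 12 tested genes, 9 of them at least 2-fold, with a median of -1.25. The first step of the branch, the chalcone synthase gene TT4, had 306 and 286 FPKM in the shaded libraries, against 1173 and 1344 FPKM in the unshaded libraries (log2 fold change -2.08, adjusted p = 1.05e-08). TT5, the chalcone isomerase, had 60.7 and 59.8 FPKM in the shaded libraries, against 261 and 286 FPKM in the unshaded libraries (-2.16), and FLS1, the flavonol synthase, had 97.8 and 89.5 FPKM in the shaded libraries, against 416 and 458 FPKM in the unshaded libraries (-2.21). MYB12, the factor that drives flavonol genes in roots, had 17.9 and 15.8 FPKM in the shaded libraries, against 37.8 and 39.3 FPKM in the unshaded libraries (-1.15). In all 12 genes no shaded library reached an unshaded one, and the groups were likewise apart in 76.3% of all tested genes. Phenylpropanoid entry genes upstream of them were mixed, with 1 of 6 higher, 3 lower (66.7% called) and a median of -0.18. PAL4, a phenylalanine ammonia-lyase, had 61.7 and 64.8 FPKM in the shaded libraries, against 24.7 and 25.3 FPKM in the unshaded libraries (1.304), whereas its paralogues PAL2 and PAL1 and the cinnamate hydroxylase C4H were lower at -0.74, -0.35 and -0.38.

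Promoter windows of RefSeq TAIR10.1 (250 bases before the annotated start and 50 from it on) were searched on both strands for the G-box CACGTG, the core site of HY5 and of phytochrome-interacting factors, and for the evening element AAAATATCT, a site of the clock factor CCA1. A window was found for 18811 of the 19553 tested genes. The G-box was present in 8.73% of all these windows, in 5 of 12 flavonoid genes, in 9 of 18 clock genes, in 81 of 728 genes that were at least 2-fold higher (11.1%) and in 42 of 376 genes that were at least 2-fold lower (11.2%). The flavonoid and clock lists held the highest shares of the lists searched. It was also present in 2 of 7 Calvin cycle, 3 of 12 light-harvesting, 6 of 25 iron and copper and 5 of 26 aliphatic glucosinolate genes. Of the sulfate genes, 0 of 19 carried it. The evening element was present in 2.97% of all windows and in 5 of 18 clock genes. A match is a description of these letters and was not tested as a site. The windows of TT4 (chr5:4488226-4488525, plus strand) and MYB12 (chr2:19476076-19476375, plus strand) are shown because both genes fell and carry a G-box. Those of TOC1 (chr5:24674713-24675012, plus strand) and PCL1 (chr3:17182792-17183091, plus strand) are shown because both are clock genes that rose and carry an evening element, on the reverse strand in TOC1. Capitals mark the matches, and PCL1 carries a G-box as well.
TT4: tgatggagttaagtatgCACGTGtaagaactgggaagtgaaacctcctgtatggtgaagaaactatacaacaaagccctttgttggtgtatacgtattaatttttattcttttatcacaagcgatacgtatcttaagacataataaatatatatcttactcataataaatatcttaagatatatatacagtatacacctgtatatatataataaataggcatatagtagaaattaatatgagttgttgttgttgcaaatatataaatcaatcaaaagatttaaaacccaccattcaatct
MYB12: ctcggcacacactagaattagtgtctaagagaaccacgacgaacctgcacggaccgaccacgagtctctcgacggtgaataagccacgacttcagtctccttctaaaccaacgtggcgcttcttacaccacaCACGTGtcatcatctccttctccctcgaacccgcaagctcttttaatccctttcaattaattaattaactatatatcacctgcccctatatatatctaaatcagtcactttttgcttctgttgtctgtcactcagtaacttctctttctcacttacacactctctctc
TOC1: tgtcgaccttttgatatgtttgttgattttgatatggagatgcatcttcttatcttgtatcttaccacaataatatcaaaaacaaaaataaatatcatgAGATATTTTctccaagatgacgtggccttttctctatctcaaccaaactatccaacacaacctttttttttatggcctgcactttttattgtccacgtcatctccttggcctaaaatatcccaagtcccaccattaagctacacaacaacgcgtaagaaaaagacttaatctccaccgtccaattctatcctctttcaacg
PCL1: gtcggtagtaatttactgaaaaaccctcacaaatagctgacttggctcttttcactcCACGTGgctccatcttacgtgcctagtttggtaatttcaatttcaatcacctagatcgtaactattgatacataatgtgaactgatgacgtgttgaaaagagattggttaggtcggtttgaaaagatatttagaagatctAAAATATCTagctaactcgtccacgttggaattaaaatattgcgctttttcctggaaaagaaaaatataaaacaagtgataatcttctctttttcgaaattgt

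Clock genes went in both directions. Of 18 tested clock genes, 11 were higher and 2 lower (72.2% called, against 50.9% of all tested genes), at a median of 0.33. The lower genes were the MYB-like factors that act around dawn. LHY had 2.46 and 3.62 FPKM in the shaded libraries, against 15.2 and 17.3 FPKM in the unshaded libraries (log2 fold change -2.104, adjusted p = 3.15e-07), and CCA1 had 4.95 and 5.25 FPKM in the shaded libraries, against 10.4 and 12.2 FPKM in the unshaded libraries (-1.01). The higher genes included ones that act later in the day. TOC1, a repressor of CCA1 and LHY, had 67.0 and 64.8 FPKM in the shaded libraries, against 31.7 and 33.4 FPKM in the unshaded libraries (log2 fold change 1.00). PRR7, another pseudo-response regulator, had 17.2 and 16.6 FPKM in the shaded libraries, against 5.65 and 6.37 FPKM in the unshaded libraries (1.35), and ELF3, a scaffold of the evening complex, had 62.3 and 60.5 FPKM in the shaded libraries, against 34.1 and 35.6 FPKM in the unshaded libraries (0.80, adjusted p = 4.60e-09). PCL1, also called LUX and the DNA-binding member of that complex, had 73.2 and 61.8 FPKM in the shaded libraries, against 36.6 and 36.9 FPKM in the unshaded libraries (0.86), and GI, a partner of the blue light receptor ZTL, rose by 0.68. No library of shaded roots overlapped an unshaded one in any of these 7 called genes, nor in 76.3% of all tested genes. Seedlings were in constant light, and the labels give no clock time of harvest.

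Light signalling genes themselves moved little, with 8 of 31 higher, 10 lower and none (0) past 2-fold in either direction, at a median of -0.055. The share called was 58.1%, near the 50.9% of all tested genes. Among photoreceptors, PHYB had 27.8 and 27.9 FPKM in the shaded libraries, against 35.9 and 36.2 FPKM in the unshaded libraries (log2 fold change -0.36), while PHYA, the far-red sensor, and CRY1, the blue light sensor, rose by 0.34 and 0.54. HFR1, an atypical bHLH that limits the shade response and is a standard shade marker in shoots, had 9.14 and 9.48 FPKM in the shaded libraries, against 5.41 and 5.76 FPKM in the unshaded libraries (0.65). HB-2, the homeobox shade marker of shoots also known as ATHB2, had 11.4 and 11.1 FPKM in the shaded libraries, against 12.1 and 9.46 FPKM in the unshaded libraries, with groups that overlapped (adjusted p = 0.646). HY5 had 84.3 and 71.2 FPKM in the shaded libraries, against 75.4 and 79.5 FPKM in the unshaded libraries, also with overlap (adjusted p = 1.00), whereas its homologue HYH was lower at -0.52. The B-box gene STO (BBX24) rose by 0.49, and LZF1 (BBX22) and COP1 were lower at -0.30 and -0.26.

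Nuclear genes of the photosynthetic antenna were higher in shaded roots. Of 12 tested light-harvesting genes, 10 rose, 6 of them at least 2-fold, and 1 fell (91.7% called), at a median of 1.09. LHB1B2, a member of the main photosystem II antenna, had 171 and 183 FPKM in the shaded libraries, against 22.9 and 25.1 FPKM in the unshaded libraries (log2 fold change 2.83, adjusted p = 2.41e-10). LHCA4, an antenna protein of photosystem I, had 75.2 and 70.8 FPKM in the shaded libraries, against 18.7 and 20.8 FPKM in the unshaded libraries (1.83), and CAB1, another main antenna gene, had 38.1 and 50.4 FPKM in the shaded libraries, against 7.37 and 7.15 FPKM in the unshaded libraries (2.44). The member that fell, LHCB2.1, lay at 0.388 and 0.332 FPKM in the shaded libraries, against 2.196 and 1.93 FPKM in the unshaded libraries. LHCB1 copies are nearly identical, so values of LHB1B2 and CAB1 are uncertain in how shared reads were divided. Of the Calvin cycle genes tested, 71.4% were called, against 50.9% of all tested genes. Calvin cycle genes had 4 of 7 higher and 1 lower, a call that was lost without each library in turn, at a median of 0.41, with RBCS1A, a small subunit of Rubisco, at 44.7 and 43.4 FPKM in the shaded libraries, against 20.21 and 21.5 FPKM in the unshaded libraries (1.04), GAPA, the plastid glyceraldehyde phosphate dehydrogenase, at 0.71 and SBPASE at -0.38. The shoot markers summed to under 1 FPKM in each library and were not higher in both shaded libraries than in the unshaded ones. Of the 12 markers, 6 were listed at 0 in all libraries at 1 d, and none of them is a photosynthesis gene. Whether green shoot tissue was carried over with the roots was not tested.

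Genes of tryptophan-derived defence went in both directions. Of 19 tested genes of indolic glucosinolates and camalexin, 7 rose, all at least 2-fold, and 9 fell, 2 of them at least 2-fold. The share called was 84.2% and the median was -0.24. The 9 genes that fell included ones of indolic glucosinolate synthesis. MYB34, the root regulator of indolic glucosinolates, had 61.1 and 46.2 FPKM in the shaded libraries, against 116 and 116 FPKM in the unshaded libraries (log2 fold change -1.11). GSTF9, a glutathione transferase, and UGT74B1, the glucosyltransferase, had log2 fold changes of -0.82 and -0.62. CYP91A2, the indolic modification enzyme CYP81F1, was at -1.50. Most of the members that rose are known to be induced by pathogens. MYB51, the regulator of indolic glucosinolates that responds to pathogens, had 19.4 and 24.3 FPKM in the shaded libraries, against 2.66 and 2.87 FPKM in the unshaded libraries (2.59, adjusted p = 3.88e-06), and its relative MYB122 rose by 1.87. CYP71A12, which makes indole-cyanohydrin intermediates of root defence compounds, had 169 and 251 FPKM in the shaded libraries, against 10.5 and 16.4 FPKM in the unshaded libraries (3.88). PAD3, the last enzyme of camalexin synthesis, rose by 1.24, IGMT1, an indole glucosinolate methyltransferase, by 2.04, and CYP81F2, which hydroxylates its substrate, by 3.01. CYP71A12 with CYP71A13 and IGMT1 with IGMT2 are close copies, and the division of their reads is not given in the sources used here.

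Salicylic acid defence genes had 7 of 10 tested members higher and 1 lower (80% called), at a median of 0.40. Besides CBP60G these included FMO1, which makes the mobile immune signal N-hydroxypipecolic acid, with 3.31 and 6.28 FPKM in the shaded libraries, against 0.256 and 0.352 FPKM in the unshaded libraries (log2 fold change 2.104). ALD1, the aminotransferase before it, had 5.08 and 7.02 FPKM in the shaded libraries, against 2.19 and 2.25 FPKM in the unshaded libraries (1.12), and PBS3, which conjugates isochorismate to glutamate, had 2.75 and 6.05 FPKM in the shaded libraries, against 0.245 and 0.224 FPKM in the unshaded libraries (2.06). Shaded library b was again the highest of the 4 libraries in FMO1, ALD1 and PBS3. The synthase of isochorismate itself, EDS16, had 3.49 and 4.56 FPKM in the shaded libraries, against 3.57 and 3.73 FPKM in the unshaded libraries, and the groups overlapped. EDS5, which exports the product from plastids, was lower at -0.46. Without shaded library b, 7 of the 10 were higher and 1 lower, at a median of 0.41.

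WRKY transcription factors, a family tied to defence, had 27 of 52 tested members higher and 8 lower, at a median of 0.18, and 6 rose at least 2-fold. WRKY70, which acts in salicylic acid signalling, had 30.0 and 45.8 FPKM in the shaded libraries, against 4.61 and 3.79 FPKM in the unshaded libraries (log2 fold change 2.88, adjusted p = 1.35e-07). WRKY45, tied to phosphate starvation, had 30.4 and 30.4 FPKM in the shaded libraries, against 4.88 and 8.10 FPKM in the unshaded libraries (2.101). WRKY51 rose by 1.32 and WRKY56 by 1.00, and the largest falls were those of WRKY60 (-0.92) and WRKY23 (-0.81), an auxin-responsive member. The share of called members, 67.3%, stood beside 50.9% of all tested genes, and the number higher was 21 without shaded library b and 20 without unshaded library a. The W-box, TTGACC or TTGACT on either strand, to which these factors bind, was present in 39.7% of the windows of genes at least 2-fold higher, in 31.6% of those at least 2-fold lower and in 33.0% of all windows. The share was 41.7% both in the 12 largest rises and in the 12 largest falls. It was 36.5% in the WRKY list, 30% in the salicylic acid list and 26.3% in the indolic glucosinolate and camalexin list. These shares were not tested.

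Most genes of nitrate uptake and reduction were lower in shaded roots. Of 23 tested nitrate and ammonium genes, 14 fell, 7 of them at least 2-fold, and 6 rose (87.0% called), at a median of -0.48. The reductases and the enzymes that feed them with electrons fell together. NIA2, a nitrate reductase, had 72.5 and 75.9 FPKM in the shaded libraries, against 166 and 150.4 FPKM in the unshaded libraries (log2 fold change -1.08, adjusted p = 3.48e-08), and NIR1, the nitrite reductase, had 75.7 and 74.2 FPKM in the shaded libraries, against 173 and 169 FPKM in the unshaded libraries (-1.18). RFNR2, a root ferredoxin reductase, and G6PD3, a plastid glucose-6-phosphate dehydrogenase, had log2 fold changes of -1.42 and -1.44, and the second nitrate reductase NIA1 had -1.90. The transporter NRT1.5, which loads nitrate into the xylem, went the other way, with 1589 and 1519.7 FPKM in the shaded libraries, against 340.0 and 364 FPKM in the unshaded libraries (2.14, adjusted p = 1.23e-08). BT1 and BT2, BTB proteins that repress nitrate uptake genes, rose by 1.98 and 1.94, and AMT2, an ammonium transporter, by 0.48. Reduction genes and xylem loading thus changed in opposite directions.

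Genes of DNA replication and mitosis were lower by a small amount. Of 33 tested members, 24 fell (72.7% called) and none (0) rose, 1 of them by at least 2-fold, with a median of -0.36. That gene was CYCD3;1, a D-type cyclin that responds to sugar and cytokinin, with 11.4 and 10.15 FPKM in the shaded libraries, against 23.4 and 23.1 FPKM in the unshaded libraries (log2 fold change -1.04). TSO2, a subunit of ribonucleotide reductase, had 48.6 and 47.2 FPKM in the shaded libraries, against 78.9 and 79.6 FPKM in the unshaded libraries (-0.71), and RNR1, another subunit, had a log2 fold change of -0.54. PCNA2, the sliding clamp of replication, was at -0.45. Ribosomal protein genes, found by the eukaryotic family letter in their RefSeq product name, fell in 76 of 108 tested members and rose in 4 (2 without shaded library a), at a median of -0.26, and none (0) changed 2-fold. The share of these ribosomal protein genes called was 74.1%. The number lower was 69 when libraries were scaled to equal FPKM sums and 85 under median-of-ratios scaling.

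Root cell type markers were present, with all 20 tested. Of these, 7 rose, none (0) fell, and the median was 0.18. The share called, 35%, was below the 50.9% of all tested genes, and 4 were called higher without shaded library a. The Casparian strip genes CASP1 and CASP2 of the endodermis rose by 0.46 and 0.47, and PHO1, which loads phosphate into the xylem, by 1.32. Markers of the stem cell niche and of root hairs did not pass the threshold. WOX5, the marker of the quiescent centre, had 2.48 and 3.07 FPKM in the shaded libraries, against 2.17 and 2.52 FPKM in the unshaded libraries, and RHD6, a root hair factor, had 13.2 and 11.4 FPKM in the shaded libraries, against 12.9 and 12.9 FPKM in the unshaded libraries. The groups overlapped in both genes.

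Auxin genes had 14 of 33 members higher (9 without shaded library b) and 3 lower, none (0) past 2-fold, at a median of 0.18. WES1, an enzyme that conjugates auxin (GH3.5), had 23.1 and 22.8 FPKM in the shaded libraries, against 12.9 and 13.0 FPKM in the unshaded libraries (log2 fold change 0.78). SHY2 and IAA2, Aux/IAA repressors, rose by 0.65 and 0.44, and ARF19, a response factor of lateral root formation, by 0.44. The biosynthesis gene YUC9, the transporter gene PIN7 and IAA14 were lower at -0.60, -0.26 and -0.22. Ethylene genes had 8 of 22 members higher and 3 lower at a median of 0.054, a median that turned to -0.022 without shaded library b. Without that library 5 were higher, and when any 1 of the other 3 libraries was left out, 1 was lower. AT1G12010 (ACO3), which catalyses the last step of ethylene synthesis, had 26.0 and 28.2 FPKM in the shaded libraries, against 6.04 and 7.40 FPKM in the unshaded libraries (1.87). EFE (ACO4), of the same enzyme family, had 38.5 and 41.4 FPKM in the shaded libraries, against 19.7 and 17.95 FPKM in the unshaded libraries (1.04). Both shaded libraries were above both unshaded ones in each gene, and the groups were apart in 76.3% of all tested genes. EIN3, the master transcription factor of the response, rose by 0.43 and its relative EIL1 by 0.25, while the receptor gene ETR2 was lower at -0.42. The share of called members was near that of all tested genes in both lists.

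The effect at 1 d was then set against that at 7 h. At 7 h, 8195 genes (41.9%) were called between shaded and unshaded roots. Of the genes called at 1 d, 6512 were called in the same direction at 7 h, which is 65.5% of the 1 d genes and 79.5% of the 7 h genes, and 69 were called in opposite directions. The difference between the effects was called for 676 genes (3.46%), of which 454 had a more positive effect at 1 d (2.32%) and 222 a more negative one (1.14%). The split depended on the fit: it was 879 more positive and 199 more negative with equal FPKM sums, 369 and 281 with median-of-ratios scaling, and 121 and 173 with only the groups compared. The count depended on single libraries. It was 262 without shaded library b of 1 d, 237 and 393 without unshaded library a or b of 1 d, 925 and 246 without shaded library a or b of 7 h, and 319 and 244 without unshaded library a or b of 7 h.

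The aliphatic glucosinolate genes held 15 of the 222 more negative effects at 1 d, of 26 tested, and none (0) of the more positive ones. CYP83A1 had 13.0 and 17.8 FPKM in the shaded libraries of 7 h and 59.0 and 64.3 FPKM in the unshaded ones, next to the 1 d levels given above. The log2 fold change was -5.03 at 1 d and -1.95 at 7 h, a difference of -3.08 (adjusted p = 3.50e-06). SULTR3;5 and GSTF14 differed in the same way, by -2.96 (adjusted p = 5.83e-06) and -3.37 (adjusted p = 6.35e-05). CYP83A1, SULTR3;5 and GSTF14 stayed called in each of the 8 fits that left out a library. Flavonoid genes, already low at 7 h with a median of -1.33, held none (0) of the called differences and none (0) at an unadjusted p under 0.05.

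FSD1 and FRO4 were low in shaded roots at 1 d and high at 7 h. FSD1, an iron superoxide dismutase whose gene is held up by copper shortage, had 82.6 and 74.5 FPKM in the shaded libraries, against 239.5 and 197 FPKM in the unshaded libraries at 1 d. At 7 h it had 206 and 151 FPKM in the shaded libraries, against 27.8 and 34.3 FPKM in the unshaded libraries. Shaded roots were thus the low group at 1 d and the high group at 7 h, and the effects differed by -3.93 (adjusted p = 0.0141). FRO4, a surface copper and iron reductase, had 1.11 and 1.81 FPKM in the shaded libraries, against 8.91 and 7.10 FPKM in the unshaded libraries at 1 d. At 7 h it was at 3.06 and 3.60 FPKM in the shaded libraries, against 0.212 and 0.132 FPKM in the unshaded libraries (difference -3.76, adjusted p = 0.0127; -6.07 with a pseudocount of 0.1). Unshaded libraries of the same time could also lie far apart. At 30 min they had 127 and 33.1 FPKM for FSD1, and 6.69 and 0.295 FPKM for FRO4. At 5 d they had 224 and 80.9 FPKM for FSD1, and 0.557 and 0.0802 FPKM for FRO4. They were closer at some other times, with 48.0 and 49.9 FPKM for FSD1 at 3 d and 5.44 and 6.84 FPKM for FRO4 at 3 h. Between 7 h and 1 d, the level of both genes in unshaded roots moved more than the level in shaded roots. Each was still called in 5 of the 8 fits that left out a library, with the same sign in all 8. The fall of FSD1 at 1 d itself (adjusted p = 0.0433) lost its call without each of the 4 libraries in turn, and that of FRO4 without library a of either group.

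The 5 largest more positive effects at 1 d were those of CYP71A12, CBP60G, TI1, AT1G26380 and GSTF6. CYP71A12 had 48.8 and 6.38 FPKM in the shaded libraries of 7 h, against 15.3 and 15.5 FPKM in the unshaded ones, and its effects differed by 3.65 (adjusted p = 0.0182). CBP60G differed by 2.88, TI1, a trypsin inhibitor gene, by 2.85, AT1G26380 by 2.82 and GSTF6 by 2.81. At 7 h, shaded library a stood above shaded library b in all 5 of these genes, by a median of 2.15 on the log2 scale, and in 398 of the 454 genes with a more positive effect, against 11420 of all 19553 tested genes. Without that library the differences were larger, at 5.03 for CYP71A12, 3.93 for CBP60G and 3.89 for GSTF6. Without shaded library b of 7 h they were smaller, at 2.275 for CYP71A12, 1.835 for CBP60G and 1.735 for GSTF6. Which of these libraries is the unusual one was not tested. Each of the 5 lost its call in at least 4 of the 8 fits that left out a library, and kept its sign in all 8. With only the groups compared in the fit, none (0) of the 5 was called, with adjusted p between 0.175 and 0.223.

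**Figure D4:**
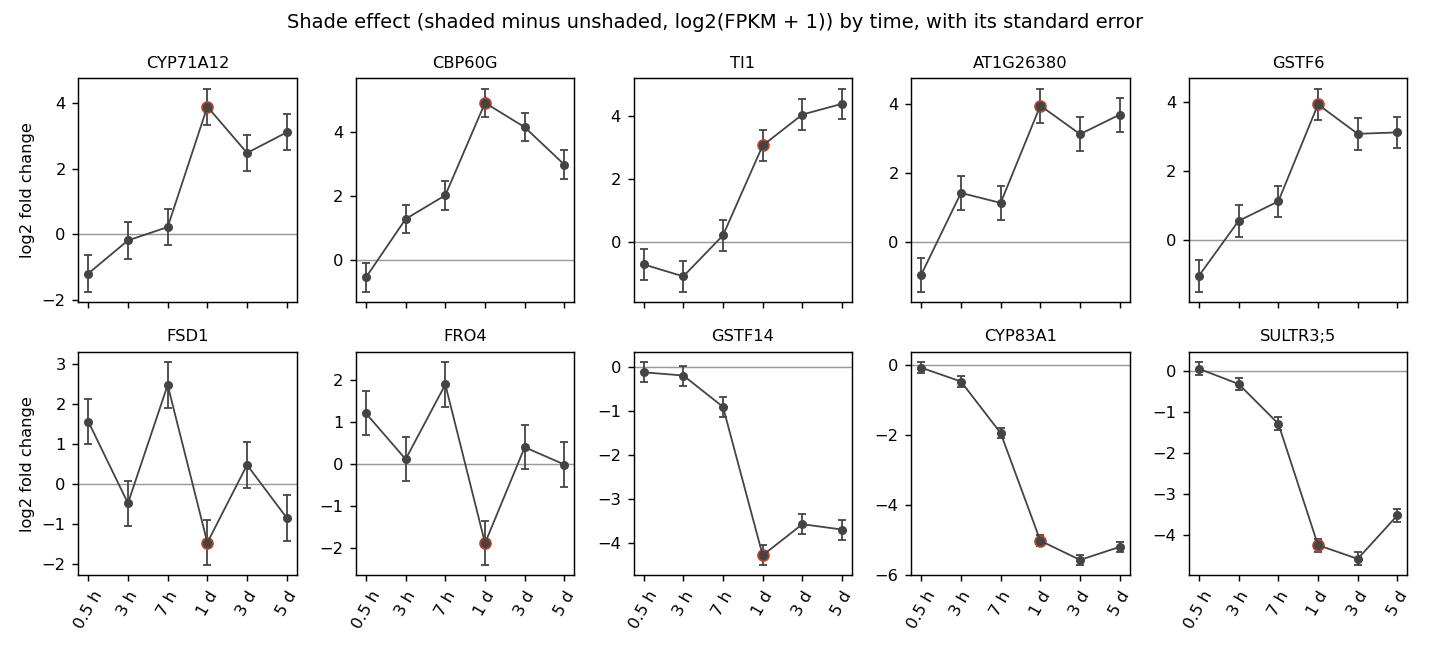
Log2 fold change of shaded against unshaded roots, with its standard error, at each of the 6 times. The top row holds the 5 genes with the largest more positive effect at 1 d than at 7 h. The bottom row holds the 5 with the largest more negative effect. The point at 1 d is larger and in another colour. CYP83A1, GSTF14 and SULTR3;5 step down between 7 h and 1 d, while FSD1 and FRO4 change sign.

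**Figure D5:**
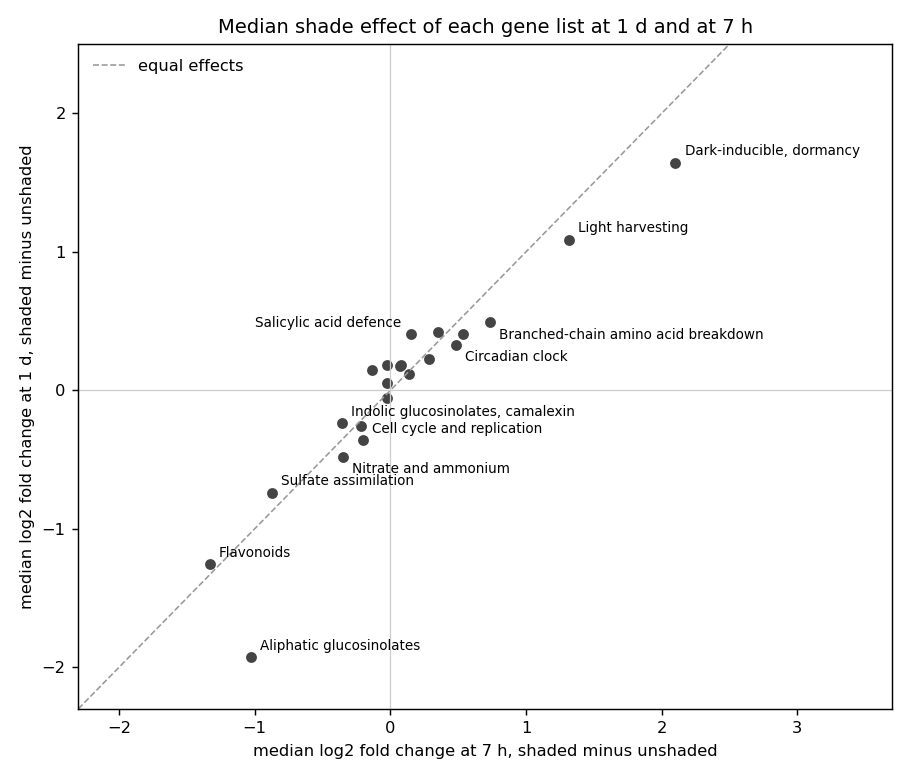
Median log2 fold change of each of the 22 gene lists at 1 d (vertical) against that at 7 h (horizontal), 1 point per list, with a dashed line where the effects are equal. The aliphatic glucosinolate list, at -1.93 and -1.03, lies farthest below the line.

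The effect at 3 d was then set against that at 1 d. At 3 d, 11376 genes (58.2%) were called, 7969 of them in the same direction as at 1 d, which is 80.1% of the 1 d genes and 70.1% of the 3 d genes, and 90 were called in opposite directions. The effect at 3 d differed from that at 1 d for 974 genes (4.98%), with 364 more positive (1.86%) and 610 more negative (3.12%). With median-of-ratios scaling 1110 genes were called, 53.1% of them more positive, against 37.4% without scaling. Without shaded library a or b of 1 d the count was 517 and 624, without unshaded library b of 1 d 386, and without unshaded library a or b of 3 d 376 and 627. The comparison shares the libraries of 1 d with that between 1 d and 7 h.

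Of the nitrate and ammonium genes, 7 of 23 had a more negative effect at 3 d than at 1 d, and of the aliphatic glucosinolate genes, 7 of 26, with 1 more positive. HAK5, the high-affinity potassium transporter, had 0.606 and 0.229 FPKM in the shaded libraries of 3 d, against 35.7 and 33.6 FPKM in the unshaded ones. At 1 d it was near 1 FPKM or lower in all 4 libraries, with 0.399 and 0.569 FPKM in the shaded libraries, against 0.945 and 1.18 FPKM in the unshaded libraries, and the effects differed by -4.19 (adjusted p = 2.02e-06). AGL19, a MADS-box gene, and VSP2, a vegetative storage protein gene induced by jasmonate, likewise differed by -3.07 and -2.82, with levels under 1 FPKM in each library at 1 d. AT5G38910, a cupin family gene, had 34.4 and 43.3 FPKM in the shaded libraries, against 5.42 and 7.15 FPKM in the unshaded libraries at 1 d. At 3 d it had 30.0 and 20.6 FPKM in the shaded libraries, against 58.4 and 41.6 FPKM in the unshaded libraries. Shaded roots were thus the high group at 1 d and the low group at 3 d (difference -3.41). The chitinase gene AT2G43590 differed in the same sense, by -2.98. Its mean went from 80.5 FPKM at 1 d to 368 FPKM at 3 d in unshaded roots, and from 152 to 87.9 FPKM in shaded roots. The unshaded mean of AGL19 went from 0.574 to 10.6 FPKM, and that of VSP2 from 0.422 to 27.3 FPKM. In HAK5, AGL19, VSP2, AT5G38910 and AT2G43590, the level in unshaded roots moved more between 1 d and 3 d than the level in shaded roots.

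Of the 5 genes with the largest more positive effect at 3 d, 2 act in cytokinin metabolism. CYP735A2, which makes trans-zeatin in roots, had 10.3 and 7.49 FPKM in the shaded libraries, against 25.5 and 29.8 FPKM in the unshaded libraries at 1 d (log2 fold change -1.54). At 3 d it had 25.8 and 22.3 FPKM in the shaded libraries and 18.5 and 20.6 FPKM in the unshaded libraries, a difference in effect of 1.83 (adjusted p = 5.77e-04). CKX4, a cytokinin oxidase, had 2.66 and 2.52 FPKM in the shaded libraries, against 9.32 and 10.13 FPKM in the unshaded libraries at 1 d, and its effects differed by 1.81. Both genes were lower in shaded roots at 1 d, and the libraries of both groups lay near each other at 3 d. UBC12, a ubiquitin-conjugating enzyme gene, AT3G15534, whose product is uncharacterized, and AT3G17998, of which no product is named, differed by 2.05, 2.89 and 1.81. In each of these genes shaded roots were the low group at 1 d.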

How the data were processed

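RNA was extracted from whole roots with trizol and chloroform and sequenced on Illumina libraries, per the labels' protocols. The authors deposited 1 table of FPKM values for 33557 genes in 24 Arabidopsis libraries, 2 for each of shaded and unshaded roots at 6 times. The submitters' processing notes name Cufflinks 2.1.1 and the genome build TAIR10. The aligner and the annotation are not given in the sources used here. FPKM divides by depth and length, so absolute depth is unknown and no counting interval is given. Relative depth was estimated from ratios of low values.

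From the deposited FPKM, genes with a mean of at least 1 over the 24 libraries were kept, and log2(FPKM + 1) was fitted with limma 3.58.1 in R 4.3.3, as 12 group means sharing 1 estimate of spread with a trend on level. Fold changes are on this scale, shaded minus unshaded, and understate the change of low genes. Contrasts were shade at 1 d, the 1 d effect minus the 7 h effect, and the 3 d effect minus the 1 d effect. Adjusted p is Benjamini-Hochberg over 19553 genes, and a gene was called below 0.05. The fit was checked on simulated data. ± marks the standard error of the fit.

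Named genes were the 12 largest rises and 12 largest falls at 1 d among called genes with no library at 0 and at least 5 FPKM in the higher group, the 5 largest differences each way, and up to 4 called members per list and direction by adjusted p. The members and lists were chosen with earlier results of these data known. Named outside the rule, after their values were seen, were the uncalled members given with their values, MT1A, KIN10, KIN11, SWEET12, MYB28, MAM1, BAT5, AT2G31790, SUR1, GGP1, APR1, PCL1, CYP71A12 as a list member, CYP81F2, NIA1 and the genes under the other observations.

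Gene names and promoter windows came from RefSeq TAIR10.1, in which 32810 identifiers were found. The labels do not say whether the letters a and b pair the libraries, which were treated as unpaired. The correlation of same-letter deviations was -0.024 at 1 d and lay between -0.029 and 0.065 over the 6 times. Alternatives were other pseudocounts, filters and scalings, a fit of the compared groups alone, a replicate block, and leaving out each library.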

Additional observations from a re-analysis of the deposited data

Results flagged for a closer look

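The size of the shade effect differed between times for 676 genes between 1 d and 7 h and for 974 genes between 3 d and 1 d, by a test of the difference itself (limma, adjusted p below 0.05). The largest differences between 1 d and 7 h were 3.652 for CYP71A12, 2.881 for CBP60G, 2.853 for TI1, 2.817 for AT1G26380 and 2.812 for GSTF6 on the log2 scale, more positive at 1 d. More negative at 1 d were FSD1 at -3.935, FRO4 at -3.761, GSTF14 at -3.366, CYP83A1 at -3.084 and SULTR3;5 at -2.959. In the 5 more positive genes, shaded library a of 7 h stood above shaded library b of 7 h, and its part in the difference was not tested. With only the groups compared in the fit, none (0) of these 5 was called (adjusted p between 0.175 and 0.223).

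Between 3 d and 1 d the more positive differences were 2.890 for AT3G15534, 2.047 for UBC12, 1.827 for CYP735A2, 1.810 for CKX4 and 1.809 for AT3G17998. The more negative ones were -4.190 for HAK5, -3.410 for AT5G38910, -3.072 for AGL19, -2.976 for AT2G43590 and -2.822 for VSP2. All 10 stayed called in each of the 8 fits that left out a library. VSP2 lost its call with a pseudocount of 0.1 (difference -2.05, adjusted p = 0.0862), and CKX4 with the replicate block within time points (adjusted p = 0.0522).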

How the results depend on the processing

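The count of genes called at 1 d ran between 7826 and 8469 when 1 library was left out, the remaining sample of that group being assumed to vary like the other groups, and was within 1.5 times the reported count under every alternative run. The counts of differences moved more. For the 1 d effect minus the 7 h effect, the count was 1078 with equal FPKM sums (879 more positive), 294 with only the groups compared (121 more positive), and 237 to 925 with 1 library left out. For the 3 d effect minus the 1 d effect it was 376 to 748 with 1 library left out. A replicate block over all times gave 9857 genes at 1 d, 613 differences between 1 d and 7 h and 899 between 3 d and 1 d. A replicate block within time points gave 8666, 226 and 333, with fewer degrees of freedom left for the spread. That fit also ended the calls of the 1 d minus 7 h difference of CBP60G, TI1, AT1G26380, GSTF6, FSD1 and FRO4, with adjusted p between 0.0555 and 0.0979. The labels do not say whether the letters mark batches shared across groups, and the cause of the lost calls was not tested.

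Of 38 genes followed, 35 were called at 1 d. FSD1 lost its 1 d call with no filter (adjusted p = 0.0673), with the replicate block within time points (0.107) and without each library in turn, and FRO4 with a pseudocount of 0.1 (0.0614) and without library a of either group. The uncalled 1 d value of AGL19, 0.085, ran between -0.0704 (without unshaded library a) and 0.2405 (without unshaded library b), and was -0.0272 without shaded library a. Of 28 list medians, 1 changed sign in some setting, that of ethylene genes. The median of dark-inducible genes was 3.07 with a pseudocount of 0.1, that of nitrogen remobilization 0.41 at a mean of at least 5 FPKM, and that of indolic glucosinolate and camalexin genes -0.12 without shaded library b. The causes were not tested.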

Other observations

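Further gene groups, chosen after values had been seen, are read against the 50.9% of all tested genes that were called at 1 d. Of 18 aquaporin genes, which encode water channels, 14 rose, 5 of them at least 2-fold, and 3 fell, which is 94.4% called, at a median log2 fold change of 0.60. TIP2;3, a channel of the vacuolar membrane, had 341 and 369 FPKM in the shaded libraries, against 49.6 and 61.7 FPKM in the unshaded libraries (log2 fold change 2.66). PIP1B, of the plasma membrane, had 1310.5 and 1397 FPKM in the shaded libraries, against 597 and 600.4 FPKM in the unshaded libraries (1.18), and PIP2;5 was the member with the largest fall at -1.04. The shaded and unshaded libraries did not overlap in these 3 genes, nor in 76.3% of all tested genes.

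Of 25 iron and copper genes tested, 11 fell, 6 of them at least 2-fold, and 3 rose, at a median of -0.28. The share called was 56.0%, near that of all genes. The number lower was 7 and 5 without shaded library a or b, and 4 and 6 without unshaded library a or b, and the number higher was 1 without unshaded library a. NAS1 and NAS2, which make the metal chelator nicotianamine, had log2 fold changes of -2.36 and -2.27. COPT2, a copper importer, had 25.5 and 29.3 FPKM in the shaded libraries, against 92.1 and 86.1 FPKM in the unshaded libraries (-1.67), and FRO2, the ferric reductase of iron uptake, had 67.7 and 49.1 FPKM in the shaded libraries, against 117 and 125 FPKM in the unshaded libraries (-1.06). BHLH101, a factor induced by iron shortage, had 15.3 and 13.99 FPKM in the shaded libraries, against 5.16 and 6.06 FPKM in the unshaded libraries (1.24).

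Phosphate genes had 6 of 14 members higher and 3 lower (64.3% called), at a median of 0.23. Cytokinin genes had 3 of 19 higher and 6 lower (47.4% called), at a median of -0.16. JAZ repressors of jasmonate signalling had 2 of 9 higher (1 when any 1 of the 4 libraries was left out) and none (0) lower, by limma and at an unadjusted p under 0.05, at a median of 0.09. Their share called, 22.2%, was below that of all tested genes.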
